A study of Mus musculus with 8 samples.

Results

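Gsap (ENSMUSG00000039934), the gene of γ-secretase activating protein, was followed across the cell types of the mouse hippocampus as 1 gene of the 30211 counted by sn-RNAseq. It was picked out by its name, with no threshold on its values, although earlier results of these data were known. γ-Secretase is a membrane protease complex whose subunits include nicastrin, Aph1 and Pen-2. It cuts the stubs that α- or β-secretase leaves of the amyloid precursor protein (APP), and after β-secretase this cut releases the amyloid-β peptide. GSAP binds the complex and APP stubs and favors the processing of APP over that of Notch, and it also binds Fe65, an APP adaptor protein that Apbb1 encodes. Neurons, astrocytes, microglia and cells of the oligodendrocyte lineage all make γ-secretase, so the cell types that carry Gsap RNA bear on where this modulator can act.

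Nuclei came from the hippocampus of C57BL/6 mice (C57BL/6N in the study's methods), with 1 library per mouse on the 10X Genomics platform: 3 WT mice and 3 GKO mice (GSAP -/-) aged 7 months, with 1 mouse each of J20;WT and J20;GKO at 6 months. In GKO mice, exons 9 to 11 of the gene had been flanked by loxP sites and removed in the whole animal by crossing with a CMV-Cre line. J20 mice, with or without GSAP, express human APP with the Swedish and Indiana mutations under the PDGFB promoter, which is active mainly in neurons. By the dates that the files carry, WT 1 and GKO 1 form one batch, J20;WT another, and the remaining libraries the third. What these dates mark is not known. With 1 mouse each, the J20 libraries entered no test of genotype.

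Gsap lies on the forward strand of chromosome 5, from 21186255 to 21315132 in the mm10 (GRCm38) annotation GENCODE vM21. Its main transcript, Gsap-201, has 31 exons and 3745 bases. The exons removed in GKO mice, by the numbering of this transcript, span chr5:21226244-21228067. Exon 9 covers 21226244 to 21226348 (105 bases), exon 10 covers 21226774 to 21226833 (60 bases) and exon 11 covers 21228024 to 21228067 (44 bases), and all are coding throughout. Their 209 bases, 5.58% of the transcript, are shown because they are the part of the RNA that is missing in GKO, with exon 10 in capitals between exons 9 and 11.
Gsap exons 9 to 11: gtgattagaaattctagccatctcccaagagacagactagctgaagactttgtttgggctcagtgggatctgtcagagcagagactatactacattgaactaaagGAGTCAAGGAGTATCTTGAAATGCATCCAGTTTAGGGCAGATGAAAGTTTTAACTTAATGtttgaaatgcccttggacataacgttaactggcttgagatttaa
This length leaves a remainder of 2 when divided by 3, so the reading frame is not kept across the gap. After exon 11, 2898 bases of the transcript follow. A read count per gene takes in all parts of the RNA that remain, so a Gsap count in a GKO library does not by itself check the deletion.

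Of 33314 barcodes, 32041 nuclei passed the filter, with 21020159 to 43310978 UMIs (unique molecular identifiers, 1 per captured RNA molecule) per library and a median of 4579 to 6438.5 UMIs per nucleus. Each nucleus was assigned to a cell type by lists of marker genes that do not include Gsap, which gave 10923 excitatory neurons, 1658 inhibitory neurons, 2605 astrocytes, 6919 oligodendrocytes, 998 oligodendrocyte progenitor cells (OPCs) and 2097 microglia. Every marker of a list was highest in its own type, except Nxph1, an inhibitory neuron marker that was higher in OPCs. Nuclei that held the markers of more than 1 type (1859) and nuclei that reached no list (4260) were left out of the comparisons. Any pair of libraries shared at most 21 cell barcodes, 0.549% of the smaller library. Levels are in CPM, counts of the gene scaled to the same total of UMIs (1e6) over all nuclei of that type in the library. In such sums, fewer nuclei of a type and less RNA per nucleus cannot be told apart, so levels within a type and not totals were compared.

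Gsap had 3 levels in the hippocampus. It was high in microglia, astrocytes and OPCs, roughly an order of magnitude lower in inhibitory neurons, and lowest in excitatory neurons and oligodendrocytes. In microglia, the resident immune cells, it had 263, 191 and 204 CPM in the WT libraries, 200.3, 185 and 181 in the GKO libraries, 161 in J20;WT and 205 in J20;GKO. In astrocytes, which take up glutamate and supply neurons, it had 138, 173 and 170.4 CPM in WT, 117, 183 and 171 in GKO, 188 in J20;WT and 159 in J20;GKO. In OPCs, the dividing cells from which oligodendrocytes arise, it had 158, 159.6 and 144 CPM in WT, 139, 196 and 164 in GKO, 159 in J20;WT and 149 in J20;GKO. These 3 types overlapped in their range, and the lowest of their 24 values, the astrocytes of GKO 1, was above every value of the other types. The 2 libraries of the first batch, WT 1 and GKO 1, had the lowest astrocyte values.

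In inhibitory neurons, Gsap had 14.4, 16.2 and 12.997 CPM in WT, 14.97, 12.7 and 14.2 in GKO, and 6.34 and 15.6 in J20;WT and J20;GKO. The J20;WT value rested on 10 UMIs (exact Poisson 95% interval 3.04 to 11.7) and was the only one below the rest. In excitatory neurons it had 3.83, 3.96 and 4.35 CPM in WT, 3.56, 4.26 and 4.34 in GKO, 5.20 in J20;WT and 5.46 in J20;GKO. In oligodendrocytes, which form myelin, it had 3.06, 1.81 and 2.73 CPM in WT, 1.85, 1.11 and 1.25 in GKO, 3.72 in J20;WT and 1.12 in J20;GKO, from 34 UMIs in all. The oligodendrocyte values lay below those of the excitatory neurons of the same library in 8 of 8 libraries. As means of the WT libraries, the levels were 219 ± 38.1 CPM in microglia, 160.4 ± 19.2 in astrocytes, 154 ± 8.24 in OPCs, 14.5 ± 1.61 in inhibitory neurons, 4.05 ± 0.271 in excitatory neurons and 2.53 ± 0.649 in oligodendrocytes (SD, n = 3).

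**Figure D1:**
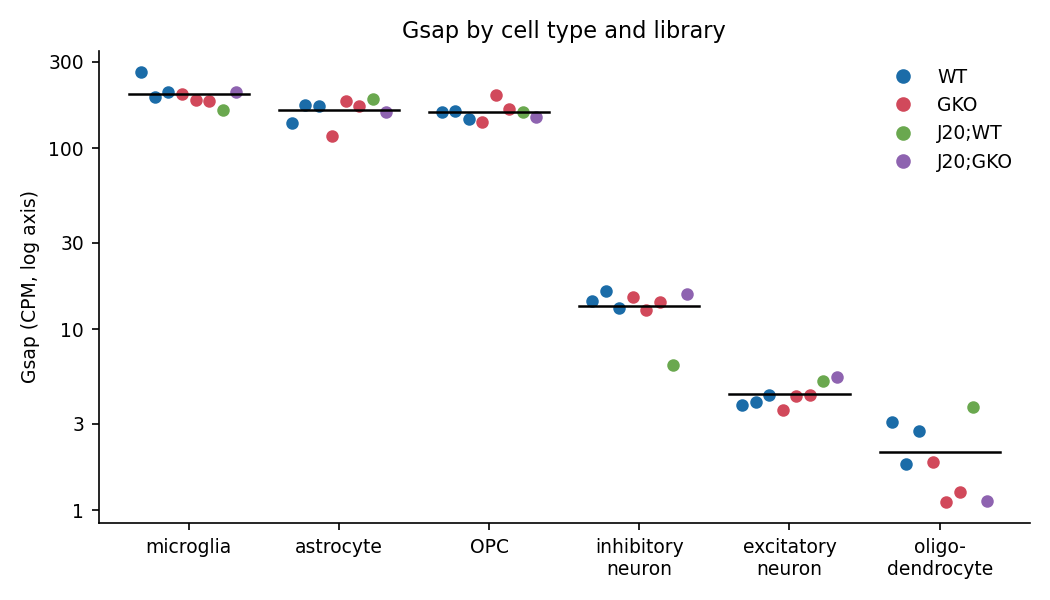
Gsap level in CPM, on a log axis, in the 6 main cell types, with 1 point per library colored by genotype and a black line at the mean of the 8 libraries. Microglia, astrocytes and OPCs sit between 117 and 263 CPM, inhibitory neurons between 6.34 and 16.2, excitatory neurons between 3.56 and 5.46, and oligodendrocytes between 1.11 and 3.72.

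To ask how glia and neurons differ, the mean of the 4 glial types was set against the mean of the 2 neuron types within each library. Glia had more Gsap than neurons, by 3.13, 2.82 and 3.04 on the log2 scale in WT 1 to 3, by 2.79, 2.89 and 2.75 in GKO 1 to 3, by 3.51 in J20;WT and by 2.46 in J20;GKO. The mean difference was 2.92 ± 0.311 (SD, n = 8) with the same sign in 8 of 8 libraries (2-sided exact sign-flip permutation test, p = 0.0078, the smallest that 8 libraries allow). In edgeR's quasi-likelihood fit across all genes, with library as a block, it was 2.82 (standard error 0.135, Benjamini-Hochberg adjusted p = 4.8e-26). Most genes differ between glia and neurons: 68% of the 13818 genes tested passed the thresholds (adjusted p below 0.05, with a log2 difference of more than 0.3 either way), 32.7% higher in glia and 35.4% higher in neurons. The size of the Gsap difference was less common, since 3.38% of the genes had a larger one toward glia. The glial mean joins unlike types, and without the oligodendrocytes the difference was 4.37 (standard error 0.0742), an alternative chosen after the data were seen.

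Of the 15 pairs of cell types, 12 passed these thresholds in edgeR for Gsap. They were excitatory neurons against inhibitory neurons (45.6% of all genes passed in this pair), astrocytes (70.9%), oligodendrocytes (73.1%), OPCs (59.1%) and microglia (73.2%), inhibitory neurons against astrocytes (66.1%), oligodendrocytes (70.7%), OPCs (55.4%) and microglia (72.3%), and oligodendrocytes against astrocytes (59.3%), OPCs (57%) and microglia (57.8%). In the order of the levels, microglia, astrocytes and OPCs were neighbors that did not separate. Astrocytes minus OPCs gave 0.15 on the log2 scale (standard error 0.0985, adjusted p = 0.21, a pair in which 50.7% of genes passed). Astrocytes minus microglia gave -0.04 (0.0955, adjusted p = 0.71, 62.1%), and OPCs minus microglia gave -0.19 (0.104, adjusted p = 0.11, 61.4%). On CPM values alone, without the TMM scaling of edgeR, Gsap was higher in microglia than in OPCs in 7 of 8 libraries, at -0.32 on average for OPCs minus microglia (exact sign-flip permutation test, adjusted p = 0.027 over the 15 pairs), and higher in microglia than in astrocytes in 7 of 8 (adjusted exact p = 0.0586). Scaling by library size alone in edgeR gave -0.34 for OPCs minus microglia and -0.32 for astrocytes minus microglia, both past the thresholds. That scaling shifted the median of all genes by -0.15 and -0.27 in these pairs, which is close to the shift of Gsap. Microglia ranked first in these fits, and whether their lead passed depended on the scaling.

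The neighbors below did separate. Inhibitory neurons lay above excitatory neurons, with a difference of -1.56 for excitatory minus inhibitory neurons (standard error 0.132, adjusted p = 3.5e-15, edgeR), seen in 8 of 8 libraries. Excitatory neurons lay above oligodendrocytes by 1.05 (standard error 0.236, adjusted p = 8.0e-05, edgeR). That pair is the least firm of the called ones, since in the 3 WT libraries alone it was 0.67 with an adjusted p of 0.061. Both levels also lay in the range of astrocyte markers in these nuclei, described below. The part of RNA carried over from other cells was not tested, so the order of these types in expression is undecided.

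The steepest step lay within the oligodendrocyte lineage. Oligodendrocytes minus OPCs gave -6.09 on the log2 scale (standard error 0.171, adjusted p = 5.4e-36, edgeR), with OPCs higher in 8 of 8 libraries and a lowest and highest library difference of -7.14 and -5.26. Of all 13818 genes, 3997 were called lower in oligodendrocytes than in OPCs, and 82 of all genes (0.593%) had a larger fall than Gsap. This is the fall in measured UMIs. The part of carried-over RNA in the oligodendrocyte counts was not tested, so the fall is no exact value for expression. Among OPCs, those with UMIs of Gpr17 or Bmp4, genes of progenitors that have begun to differentiate, had 151 CPM (exact Poisson 95% interval 137 to 165) against 176 (155 to 199) in those without, lower in 7 of 8 libraries (exact sign-flip permutation test, p = 0.031). The former were most of the OPCs, 652 nuclei against 346, so this split does not single out differentiating cells. They were also deeper, with a median of 4334 UMIs against 4033, and the part of depth was not tested. Among oligodendrocytes, those with at least 2 UMIs of Enpp6, a gene of newly formed oligodendrocytes, had 4 Gsap UMIs in 644 nuclei, or 2.12 CPM (0.577 to 5.42), against 2.27 (1.51 to 3.29) in the 5381 nuclei with none, over all libraries pooled. On log2 CPM with a prior count of 0.5, Enpp6 nuclei were higher in 6 of 8 libraries, by 0.54 on average (exact sign-flip permutation test, p = 0.23). With 4 UMIs over 8 libraries, and 0 CPM in the lowest, the prior count largely sets these values, so they give no direction. These splits were chosen after Gsap levels had been seen.

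Per nucleus the order within the high group changed, because nuclei of the types differ in their RNA content. The mean was 0.689 ± 0.0455 Gsap UMIs per nucleus in OPCs, 0.664 ± 0.0592 in astrocytes and 0.411 ± 0.0973 in microglia (SD, n = 8), whose nuclei held a median of 4217, 3677 and 1953 UMIs of all genes. It was 0.168 ± 0.0515 in inhibitory neurons, 0.0530 ± 0.0081 in excitatory neurons and 0.0049 ± 0.0023 in oligodendrocytes, with medians of 11230.5, 10484 and 2203 UMIs. Neuronal nuclei thus had the most RNA and few Gsap UMIs. At least 1 Gsap UMI was seen in 48.2% of OPC, 43.3% of astrocyte and 31.6% of microglial nuclei, and in 12.8% of inhibitory neurons, 4.49% of excitatory neurons and 0.477% of oligodendrocytes. Where it was seen, most nuclei had a single Gsap UMI. Nuclei with exactly 1 made up 28.3% of astrocytes and those with exactly 2 a further 10.2%, and the highest count in any nucleus was 9, in an astrocyte.

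Shares of this kind move with depth, so each nucleus was thinned to 1000 UMIs and shallower nuclei were left out (203 excitatory, 50 inhibitory, 69 astrocyte, 91 oligodendrocyte, 17 OPC and 38 microglial nuclei). After thinning, the share with a Gsap UMI was 17.0% ± 2.76 in microglia, 15.3% ± 1.97 in astrocytes, 13.8% ± 1.90 in OPCs, 1.35% ± 1.08 in inhibitory neurons, 0.384% ± 0.121 in excitatory neurons and 0.119% ± 0.0827 in oligodendrocytes (SD, n = 8). Glia minus neurons came to 10.7 percentage points, positive in 8 of 8 libraries (2-sided exact sign-flip permutation test, p = 0.0078). At this depth the order of the types was that of the CPM levels. At 500 UMIs the microglia again led at 8.97%, but OPCs at 8.15% lay above astrocytes at 7.57%, a smaller gap than the spread between libraries.

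**Figure D2:**
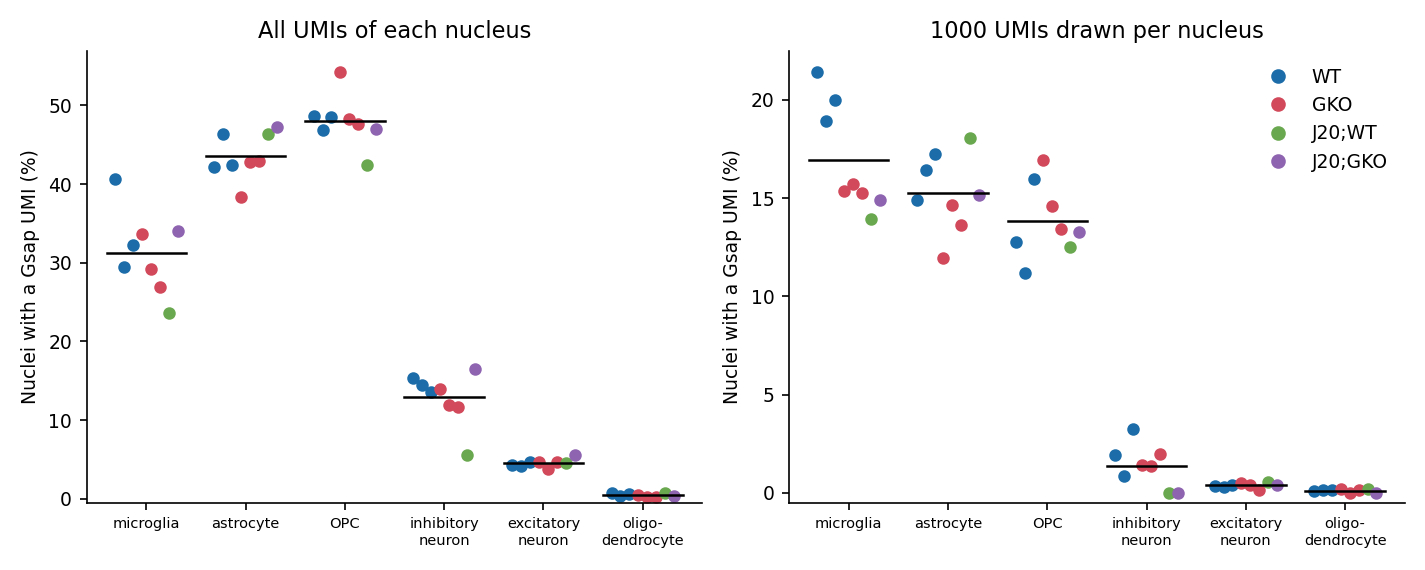
Share of nuclei with at least 1 Gsap UMI, in percent, in 6 cell types, with 1 point per library and a black line at the mean of the 8 libraries. With all UMIs of each nucleus (left) OPCs lead at 47.95% on average, and with 1000 UMIs drawn per nucleus (right) microglia lead at 17.0%.

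Few of the UMIs of a library come from the types that carry most Gsap. Astrocytes, OPCs and microglia together gave 6.97% to 8.78% of all UMIs of a library and 58.3% to 66.3% of its Gsap UMIs. Astrocytes alone gave 21.7% to 39.0% of the Gsap UMIs. Excitatory neurons gave 47.5% to 60.7% of all UMIs and 8.22% to 15.2% of the Gsap UMIs. Oligodendrocytes gave 4.25% to 8.76% of all UMIs and 0.242% to 1.03% of the Gsap UMIs. A Gsap level read over all nuclei, at 19.8 to 23.0 CPM, therefore depends on the shares of these types in a library as well as on the level in each type.

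Low counts in neurons and oligodendrocytes were set beside RNA of other cells in the same nuclei. In excitatory neurons, Gsap stood at 2.29% to 3.43% of its level in the astrocytes of the same library. The 12 astrocyte markers, summed, stood at 2.36% to 3.07% of their astrocyte level there, and Gsap was above them in 4 of 8 libraries. The median astrocyte marker was at 0.952% to 1.36%, below Gsap in 8 of 8, and Aqp4 and Gja1, genes of astrocyte water channels and gap junctions, were at 0.479% and 0.293%. Slc4a4, a bicarbonate transporter gene of the list, was at 13.9%, and at 36.2% in dentate granule neurons. In oligodendrocytes, Gsap stood at 0.609% to 2.21% of the astrocyte level, above the summed markers in 4 of 8 libraries and above the median marker in 6 of 8. In dentate granule, CA1 and subicular or cortical neurons, described below, Gsap was above the summed markers in 0, 0 and 2 of 8 libraries and above the median marker in 8, 8 and 7. Gsap in these types and in oligodendrocytes thus mostly lay in the range of the astrocyte markers, which differed widely from gene to gene. Whether these values are carried-over RNA or include expression was not tested. In inhibitory neurons Gsap stood at 3.38% to 12.8%, above the summed markers (0.993% to 1.42%) in 8 of 8 libraries. The same 12 markers served to type nuclei and to leave out mixed ones, and Gsap did not. The gate can thus hold these markers down, but not Gsap, in the nuclei kept outside astrocytes. They are therefore no independent measure of carried-over RNA. The microglia markers, summed, were at 0.311% to 0.653% of their own level in both neuron types. The OPC markers, summed, were at 3.71% to 6.33% of their own level in excitatory neurons and 7.07% to 9.21% in inhibitory neurons. The last range lies within that of Gsap, which is relative to astrocytes. The OPC list holds Sox6, which is also a marker of the MGE-type interneurons described below. In those the summed OPC markers were at 8.07% to 11.3%, and in CGE-type interneurons at 3.38% to 5.13%. Whether these marker values are carried-over RNA or the neurons' own was not tested. The part of carried-over RNA in the neuronal Gsap values was not tested either.

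**Figure D3:**
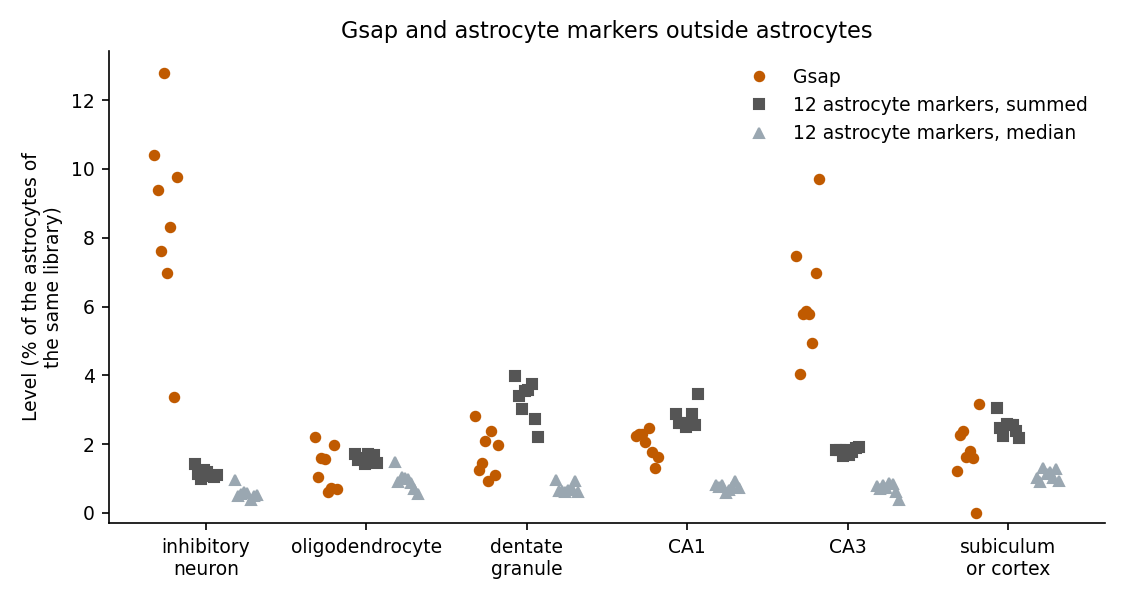
Gsap, the sum of 12 astrocyte markers and their median, each as a percent of its level in the astrocytes of the same library, in inhibitory neurons, oligodendrocytes and 4 groups of excitatory neurons, with 1 point per library. Gsap lies above the summed markers in every library for inhibitory neurons and CA3 neurons, and in no library for dentate granule and CA1 neurons.

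Among excitatory neurons, CA3 pyramidal neurons stood apart. Marker lists placed 3631 nuclei as dentate granule, 2297 as CA1, 926 as CA3 and 1140 as subicular or cortical neurons. Another 2431 excitatory nuclei (22.3%) reached none of these lists and 498 (4.56%) reached more than 1, and both were left out. CA3 neurons, which receive the mossy fibers and send the Schaffer collaterals to CA1, had 10.3, 6.99 and 9.86 CPM in WT, 6.88, 10.6 and 8.42 in GKO, 13.1 in J20;WT and 15.5 in J20;GKO. Dentate granule neurons had 3.91, 2.15 and 2.47 CPM in WT, 2.45, 1.67 and 4.08 in GKO, 2.09 in J20;WT and 3.15 in J20;GKO. CA1 pyramidal neurons had 3.10, 3.98 and 3.90 CPM in WT, 2.42, 4.53 and 3.01 in GKO, 2.47 in J20;WT and 2.57 in J20;GKO. Every CA3 value was above every value of the dentate granule and CA1 neurons. Neurons with subicular or cortical markers had 0 to 5.05 CPM.

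CA3 was higher than each of the other groups in 8 of 8 libraries (exact sign-flip permutation test, adjusted p = 0.0156 over the 6 pairs for each). In edgeR the difference was -1.89 for dentate granule minus CA3 (standard error 0.222, adjusted p = 5.3e-09; 47.8% of genes passed the thresholds in this pair), -1.63 for CA1 minus CA3 (0.216, adjusted p = 1.2e-07, 31.7%) and 1.91 for CA3 minus subiculum or cortex (0.263, adjusted p = 1.9e-07, 38.8%). The other 3 pairs did not pass, at -0.26 for dentate granule minus CA1 (43.6% of genes passed), 0.02 for dentate granule minus subiculum or cortex (47.9%) and 0.28 for CA1 minus subiculum or cortex (34.4%). CA3 nuclei were also the deepest, with a median of 18210 UMIs against 8162 in dentate granule and 12766 in CA1 neurons. In nuclei of 14664.5 to 22970 UMIs only, a band chosen after the data were seen, CA3 had 10.2 CPM (exact Poisson 95% interval 8.15 to 12.6), CA1 3.60 (2.57 to 4.90) and dentate granule neurons 2.93 (1.51 to 5.12), with CA3 higher in 8 of 8 libraries than each. In CA3 neurons the summed astrocyte markers stood at 1.65% to 1.92% of their astrocyte level and Gsap at 4.05% to 9.70%, above them in 8 of 8 libraries. Here too the markers compared are those by which nuclei were left out. The summed OPC markers stood at 3.00% to 4.14% of their OPC level there.

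Interneurons were split by origin, and 701 of the 1658 (42.3%) that reached neither marker list and 7 that reached both were left out. Those with markers of the medial ganglionic eminence (MGE-type, such as somatostatin and parvalbumin neurons) had 10.8, 7.89 and 9.45 CPM in WT, 6.64, 7.98 and 9.42 in GKO, 3.21 in J20;WT and 9.53 in J20;GKO. Those with markers of the caudal ganglionic eminence (CGE-type, such as Vip neurons) had 7.23, 19.3 and 16.7 CPM in WT, 12.8, 23.9 and 24.4 in GKO, 2.48 in J20;WT and 26.6 in J20;GKO. There were 548 MGE-type and 402 CGE-type nuclei over all libraries. CGE-type neurons were higher in 6 of 8 libraries, by 0.84 on the log2 scale on average (2-sided exact sign-flip permutation test, p = 0.031). The exceptions were WT 1 and J20;WT. Leaving out any one of the other 6 libraries gave an exact p of 0.0625, with 2 to 22 UMIs behind each value of all libraries but 1, which had a single UMI.

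**Figure D4:**
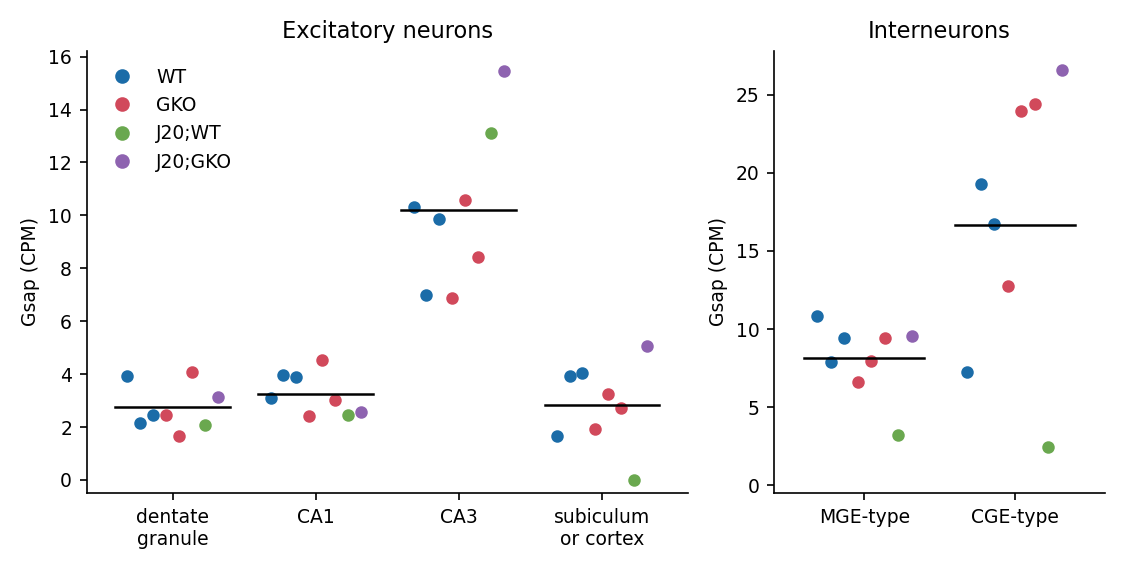
Gsap level in CPM in excitatory neurons of 4 kinds (left) and in 2 kinds of interneuron (right), with 1 point per library colored by genotype and a black line at the mean of the 8 libraries. CA3 neurons range from 6.88 to 15.5 CPM and the other excitatory groups from 0 to 5.05, and J20;WT is the lowest point in both interneuron groups.

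Rarer cells gave few counts. Endothelial cells had 0 Gsap UMIs among 111510, which allows up to 26.9 CPM. Cajal-Retzius cells, early-born neurons of the outer layer, had 5 UMIs in 233 nuclei or 5.46 CPM (exact Poisson 95% interval 1.77 to 12.7). Mural cells and fibroblasts had 7 UMIs in 301 nuclei or 8.95 CPM (3.60 to 18.4), and choroid plexus cells had 18 UMIs in 135 nuclei or 16.1 CPM (9.55 to 25.5). All these upper limits lie below the levels in microglia, astrocytes and OPCs. The intervals cover counting error only.

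Gsap was next compared between GKO and WT, the gene that was targeted. Over all nuclei it had 22.5, 23.0 and 22.3 CPM in WT, 19.8, 21.8 and 22.0 in GKO, and 19.9 and 21.1 in J20;WT and J20;GKO. All GKO values lay below the WT values without overlap (exact permutation p = 0.1, the smallest that 3 against 3 mice allow), and the difference was small, at -0.07 on the log2 scale (standard error 0.0902, adjusted p = 1.00, edgeR). By cell type, GKO minus WT was -0.23 (standard error 0.166) in microglia, -0.02 (0.175) in astrocytes, 0.11 (0.176) in OPCs, 0.03 (0.170) in excitatory neurons and -0.04 (0.220) in inhibitory neurons, none past the thresholds. Oligodendrocytes had too few UMIs for the edgeR fit, with 2.53 ± 0.649 CPM in WT and 1.40 ± 0.390 in GKO (SD, n = 3; exact permutation p = 0.2). In each of these comparisons 0% of all genes passed, by edgeR and also by DESeq2, with 133 to 254 genes at an unadjusted p under 0.05 in edgeR. None of these tests thus separated GKO from WT libraries by Gsap level. The study checked the deletion by genomic PCR and quantitative RT-PCR, and it reports reduced GSAP mRNA in GKO. Its RT-PCR used hippocampal tissue and primers across different exons, which is a different measure from a count over the whole gene. Neither assay is analysed here. Within batches, microglia had 263 CPM in WT and 200.3 in GKO in the first, and 197.5 and 183 in the third, where 2 mice of each genotype were averaged. Oligodendrocytes had 3.06 and 1.85 CPM in the first and 2.27 and 1.18 in the third. In both types GKO was lower in both batches. It was also lower in each of the 3 pairs of like number, though whether these numbers pair the mice is not known. Astrocytes had 138 and 117 CPM in the first and 171.5 and 177 in the third, and OPCs 158 and 139 in the first and 152 and 180.1 in the third, so their direction turned between batches.

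The difference between glia and neurons was also compared between the genotypes. GKO minus WT came to -0.19 on the log2 CPM scale (exact permutation p = 0.2), and the interaction in edgeR was -0.20 (standard error 0.195, adjusted p = 1.00), with 0% of genes past the thresholds. The J20 pair had 3.51 without the deletion and 2.46 with it. These are single mice of different batches, so genotype and batch cannot be told apart there.

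The genes that work with Gsap were read from a list of 27 genes of γ-secretase and APP processing, of which 26 were in the files and 25 had enough counts to be tested. Against the 32.7% of all genes higher in glia and 35.4% higher in neurons, 11 of the 25 were higher in glia, 5 were higher in neurons and 9 did not pass. The median log2 difference of the list was 0.06, and 1 gene of it had a larger difference than Gsap.

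Among the 7 γ-secretase subunits, 3 were higher in glia and none in neurons. Psenen, which encodes Pen-2, had the largest difference at 0.77 (standard error 0.0573, adjusted p = 7.2e-18, edgeR). Ncstn, which encodes nicastrin, the substrate receptor, differed by 0.58 (0.0625), with 99.7 ± 23.0 CPM in microglia against 33.1 ± 3.85 in excitatory neurons (SD, n = 8). The other glial types were nearer the neurons, with means of 49.0 CPM in OPCs, 38.0 in astrocytes and 35.2 in oligodendrocytes, against 31.3 in inhibitory neurons.

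Among the other modulators of γ-secretase, 3 of 5 were higher in glia. Ifitm3, an interferon-induced membrane protein, differed by 2.62 (standard error 0.289), at low levels of 18.4 ± 17.3 CPM in astrocytes and 7.97 ± 4.42 in microglia. Tmed10, a cargo receptor of the early secretory pathway, differed by 1.12 (0.0585). The other two did not pass. All 3 α- or β-secretases tested were higher in the mean of the glial types: Adam17 by 1.496 (0.0547), Adam10 by 0.55 (0.0457) and Bace1, the β-secretase, by 0.31 (0.0496). Not every glial type was higher. Adam10 had a mean of 92.1 CPM in astrocytes, against 98.3 in excitatory and 118 in inhibitory neurons. Bace1 had 47.7 in microglia, against 48.7 and 57.7 in these neurons. Bace1 was just past the fold threshold and fell below it at 0.23 without the filter on low counts and at 0.22 in the WT libraries alone.

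Among the substrates, Notch1 and Notch2, receptors of cell fate signals, were higher in glia by 4.79 (standard error 0.198) and 1.96 (0.170). Notch1 had 143 ± 26.8 CPM in astrocytes, 118 ± 18.9 in OPCs and 50.1 ± 12.5 in microglia, and 5.35 ± 3.04 in oligodendrocytes (SD, n = 8). Notch2 was high only in microglia (172 ± 33.8 CPM) and astrocytes (150 ± 21.1). It had 19.8 ± 5.59 CPM in oligodendrocytes and 8.03 ± 3.05 in OPCs, against 16.8 ± 3.21 in excitatory and 7.46 ± 4.42 in inhibitory neurons. App was the substrate higher in neurons, at -0.64 (0.0906, adjusted p = 2.2e-08, edgeR) over 8 libraries and -0.70 (adjusted p = 1.2e-06) in the WT libraries alone. Since J20 libraries also carry human APP, App levels are given for the WT libraries: 462 ± 14.0 CPM in excitatory neurons, 596 ± 42.6 in inhibitory neurons, 1484 ± 349 in oligodendrocytes, 292 ± 27.8 in OPCs, 253 ± 40.6 in microglia and 119 ± 31.2 in astrocytes (SD, n = 3). Oligodendrocytes and excitatory neurons, the types with the lowest Gsap, thus had more App than astrocytes, OPCs and microglia. The APP adaptors leaned the other way from the secretases, with 4 of 5 higher in neurons and none higher in glia. Apba2, a synaptic adaptor, differed by -2.02 (0.0676), Apba1 by -0.76 (0.0561) and Apbb1, the gene of Fe65, by -0.53 (0.0720). Not every glial type was lower. Apba2 had means of 194 CPM in astrocytes and 205 in OPCs, against 301 in excitatory and 188 in inhibitory neurons, and was low in oligodendrocytes (21.4) and microglia (17.1). Apba1 had 417 in microglia and 369 in oligodendrocytes, against 252 in excitatory and 539 in inhibitory neurons, with 218 in OPCs and 80.3 in astrocytes. Without microglia among the glia Apbb1 was at -0.21 and no longer passed, and Apba1 was at -0.27 and no longer passed against excitatory neurons alone. Apbb1 had 63.7 ± 6.29 CPM in oligodendrocytes, 36.5 ± 3.28 in excitatory neurons and 14.8 ± 6.30 in microglia (SD, n = 8).

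**Figure D5:**
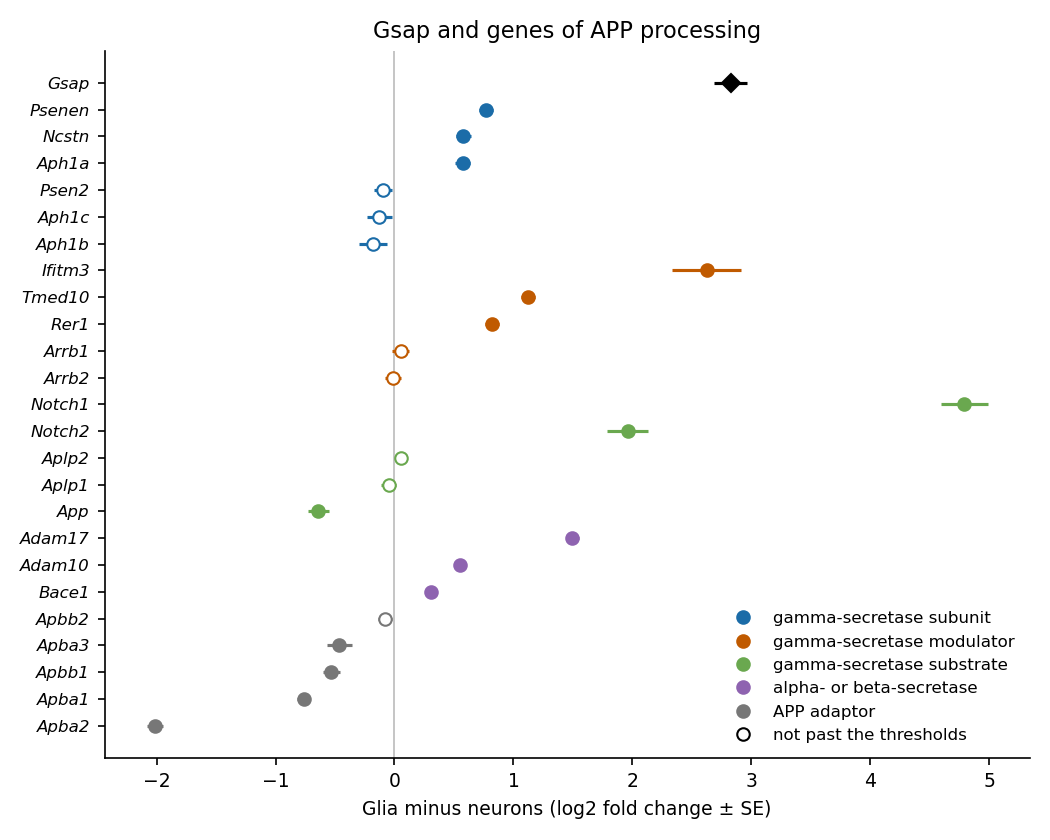
Difference between glia and neurons (log2 fold change with its standard error, edgeR, 8 libraries) for Gsap and genes of APP processing, grouped by role, with open circles for genes not past the thresholds. Gsap, at 2.82, is exceeded by Notch1 at 4.79, and the largest difference toward neurons is that of Apba2 at -2.02.

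Genes with a pattern like that of Gsap were sought by Pearson correlation of log2 CPM over 48 values, 8 libraries by 6 types, each library centered on its own mean. The closest of 13817 genes were Sall3 (r = 0.957), Tap2 (0.949), Fibp (0.949), Serpine2 (0.941) and Zfp516 (0.941). Over all genes, the median r was 0.11 and 38 genes exceeded 0.9. These values share libraries and cell types and are a description. Sall3, a zinc finger transcription factor, had 159.9 ± 15.7 CPM in microglia, 118 ± 25.3 in astrocytes, 60.6 ± 18.8 in OPCs and 0.245 ± 0.204 in excitatory neurons (SD, n = 8). Serpine2, a secreted protease inhibitor, had 1198 ± 113 CPM in OPCs, 647 ± 32.5 in astrocytes, 319 ± 82.9 in microglia and 10.8 ± 2.31 in oligodendrocytes. Tap2, a subunit of the peptide transporter for MHC class I, had 68.9 ± 17.1 CPM in microglia, 40.0 ± 7.59 in astrocytes, 33.2 ± 9.38 in OPCs and 2.59 ± 1.23 in oligodendrocytes. Each of these 3 shares with Gsap the low value in oligodendrocytes beside a high value in OPCs, a likeness for which the correlation selects. Fibp had a narrower range, with 32.2 ± 5.21 CPM in oligodendrocytes, 38.3 ± 7.39 in excitatory neurons and 73.0 ± 13.8 in OPCs.

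The genes on either side of Gsap did not both follow it. Ptpn12, a tyrosine phosphatase gene upstream on the reverse strand (chr5:20986645-21055911), was higher in the mean of the neuron types, at -0.79 on the log2 scale (standard error 0.0502, edgeR). It had 118 CPM in astrocytes and 109.3 in OPCs, near the 109.0 in excitatory and 127 in inhibitory neurons. The low values were those of microglia (57.9) and oligodendrocytes (35.1). Ccdc146, a coiled-coil protein gene on the reverse strand downstream (chr5:21292961-21424677), was higher in glia by 2.38 (0.224), with 35.4 CPM in astrocytes, 12.8 ± 6.80 in OPCs, 6.62 ± 3.73 in microglia and 1.40 ± 0.314 in excitatory neurons (means, SD where given, n = 8). The far end of the annotated Gsap gene overlaps Ccdc146 on the opposite strand. Whether the counting used strand is not given in the sources used here, and if it did not, reads of the overlap cannot be assigned to either gene.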

How the data were processed

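Unnormalised UMI counts per gene and nucleus were deposited by the authors for each library, made with Cell Ranger (3.0.2 in the file headers) on mm10. The kit end, intron counting and use of strand are not given in the sources used here. The study analysed them with Seurat 3.0 in R 3.6.2. Nuclei with over 5% mitochondrial UMIs, under 200 or over 7500 genes were removed, after the study's methods. Nuclei were typed by scores of fixed marker lists with at least 3 markers detected. A second rule, which left out nuclei holding at least 0.5 of the marker UMIs of a median nucleus of another type, was added after Gsap levels had been seen. No doublet caller was run, and nuclei of mixed markers were left out.

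Counts were summed per library and cell type and tested with edgeR 4.0.16 (R 4.3.3; quasi-likelihood, TMM, expression filter, library as a block between types), with Benjamini-Hochberg adjustment over all genes. A gene passed where its adjusted p was below 0.05 and its log2 difference exceeded 0.3 either way. Standard errors were derived from the log2 fold change and its F statistic. Exact permutation tests over libraries used log2 CPM with a prior count of 0.5 and scipy 1.17.1. DESeq2 1.42.0 was an alternative. The fits were first tested on simulated data. Poisson and binomial intervals are exact at 95%, and 3 counts set the limit for a count of 0. Each library is a separate mouse.

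The gene, the lists and the tests were chosen with earlier results of these data known. Genes named from the APP processing list were the 2 with the largest difference past the thresholds in each role, and always App, Ncstn, Psenen, Apbb1 and 1 gene that is not reported here. Bace1 was named after its values were seen. Replicate numbers were shared by WT and GKO. Over all nuclei, the deviations of libraries of the same number from their group means had correlations of 0.56, 0.18 and 0.21. By type, the second pair had -0.07 in inhibitory neurons and 0.06 in OPCs. The deviations of each group sum to 0, so the correlations are not independent. WT 1 and GKO 1 also share a file date, so these values cannot tell pairing from batch. The numbers served as a block in an alternative fit only.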

Additional observations from a re-analysis of the deposited data

Results flagged for a closer look

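Gsap was also present in data outside the comparisons, each above the limit that a count of 0 allows. In the 1859 nuclei with markers of more than 1 type it had 29.996 CPM (exact Poisson 95% interval 28.0 to 32.1). In the 4260 nuclei that reached no marker list it had 9.37 CPM (8.19 to 10.7). In the 1273 barcodes removed by the filter it had 11.004 CPM, from 284 UMIs. With at most 3 libraries per genotype, no group was large enough for a test of single outlying libraries.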

How the results depend on the processing

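Across all alternatives run, Gsap stayed higher in glia than in neurons and past the thresholds. Without any one library the log2 difference was 2.77 to 2.88, and over the other settings it ran from 2.28 without microglia to 4.37 without oligodendrocytes, the latter chosen after seeing the data. Of the 15 pairs of types, 12 passed without any one library and with DESeq2, 14 with library size alone and 11 in the WT libraries alone. Library size alone shifted the median of all genes by up to 0.31 in size, as in oligodendrocytes minus microglia (-0.31), and no filter by up to 0.39 (excitatory neurons minus microglia). The CGE-type and MGE-type difference was 0.73 to 1.03 without any one library, with an exact p of 0.0625 without any of 6 of them. Pairs near 0 changed sign: astrocytes minus microglia gave 0.0027 with no filter and -0.089 to 0.066 without any one library, and dentate granule neurons minus subiculum or cortex gave -0.0038 with library size alone and -0.23 to 0.13 without any one library. GKO minus WT near 0 did so too, in excitatory neurons (-0.049 with types from clusters, -0.017 to 0.083 without any one library), inhibitory neurons (0.15 and -0.13 to 0.040), astrocytes (-0.13 to 0.14) and OPCs (-0.0021 to 0.20). The causes were not tested. With the replicate block, 0 of the Gsap comparisons between genotypes passed and the interaction was -0.21, so the block changed no call for Gsap. Over all genes the block called 1 gene in astrocytes, 2 in OPCs and 1 over all nuclei, where the fit without it called 0. Depth limits the oligodendrocyte, interneuron and vascular values, which rest on few UMIs.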

Other observations

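Astrocytes with at least 2 UMIs of Gfap, an intermediate filament gene raised in reactive astrocytes, had 157 CPM of Gsap (exact Poisson 95% interval 144 to 170.3) and those with none had 163 (152 to 175), with the former higher in 4 of 8 libraries (exact sign-flip permutation test, p = 1.0). Microglia with at least 2 UMIs of genes of border macrophages had 197 CPM (126 to 293) from 24 UMIs, and those with none had 204 (190.1 to 218). Nuclei with 1 such UMI were left out of both splits, which were chosen after Gsap levels had been seen.

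When excitatory neurons were ordered by depth into 4 groups of like size, Gsap had 2.87, 3.40, 3.93 and 5.22 CPM from the shallowest to the deepest. Inhibitory neurons had 16.7, 13.2, 14.8 and 12.7 CPM in the same order, and OPCs 166, 161, 169 and 147. CA3 neurons are the deepest of the excitatory neurons, and their part in the first order was not tested.

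After thinning to 1000 UMIs, 21.4%, 18.9% and 20.0% of microglia had a Gsap UMI in the WT libraries and 15.4%, 15.7% and 15.3% in the GKO libraries, which did not overlap. The J20;WT and J20;GKO libraries had 13.9% and 14.9%. At 500 UMIs the WT and GKO libraries did overlap (14.2%, 4.56% and 10.4% against 8.33%, 6.58% and 8.85%). They also overlapped without thinning (40.6%, 29.5% and 32.3% against 33.7%, 29.2% and 26.9%). The comparison at 1000 UMIs was noticed among several cell types and was not tested. The CPM levels in microglia did not differ past the thresholds.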
